A study of Homo sapiens with 12 samples.

Results

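The 10 genes described here encode ligands and receptors of the class 3 semaphorin system: the secreted semaphorins SEMA3A, SEMA3B, SEMA3C and SEMA3F, the neuropilins NRP1 and NRP2, and the plexins PLXNA1, PLXNA2, PLXNB2 and PLXND1. They were chosen by symbol from a table of 60648 genes, with the genotype difference at the initial harvest in view, where SEMA3A was among the genes lowered most. All 10 were found once and passed the filter on low counts. Their transcripts were measured by poly-A RNA-seq in HCT116, a human colon carcinoma cell line, with 3 libraries in each of 4 groups. The groups were cells wild type for MTHFD2 (WT) and MTHFD2 knock-out cells (KO), each at an initial and at a final harvest. MTHFD2 is a methylenetetrahydrofolate dehydrogenase of one-carbon folate metabolism. The knock-out was made with CRISPR-Cas9 and is 1 isolated clone, harvested right after it was made and again 2 months of culture later. All groups were grown in the same medium with serum, and the labels do not say whether the wild-type cells were also a clone. The labels call the libraries of a group biological replicates, but for the knock-out these are replicates of 1 clone, so that the p-values cover the spread between libraries and not between clones.

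Class 3 semaphorins are secreted proteins first known as guidance cues that repel or attract growing axons. Most of them bind a neuropilin, which has almost no signalling part of its own, and the neuropilin pairs with a plexin that carries the signal into the cell, where it acts on small GTPases, the actin cytoskeleton and integrin adhesion. SEMA3A is the classical ligand of NRP1 with A-type plexins, SEMA3F prefers NRP2, and SEMA3E can bind PLXND1 without a neuropilin. Neuropilins also serve as co-receptors of vascular endothelial growth factors, and in epithelial tumours semaphorins and neuropilins are studied for effects on migration and on blood vessels.

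Totals ran from 38597809 to 40017561 counts per library, and 18289 genes passed the filter. Levels are given as CPM, the counts in proportion to the library total scaled with TMM factors, and as RPKM, the same value per kilobase of exon length, where genes are compared with each other. MTHFD2 itself had 413 ± 41.2 CPM (mean ± SD, n = 3 here and below) in initial wild-type, 355 ± 32.4 in final wild-type, 137 ± 9.10 in initial knock-out and 137 ± 16.7 in final knock-out libraries, so all 12 libraries matched their genotype labels and the knock-out libraries still held MTHFD2 reads. Marker sums, here and below, are CPM without the TMM factors. The epithelial markers of colon (EPCAM, CDH1, KRT8, KRT18, KRT19, CDX2, VIL1 and LGALS4) summed to between 2249 and 3293 CPM in every library. VIL1 had 12 counts or fewer and LGALS4 had 6 or fewer in every library, and neither passed the filter. Of the 6 epithelial markers that passed the filter, 4 were lower and 0 higher in the final knock-out by edgeR's quasi-likelihood test, where 10.2% of all genes were lower. Among the 4 were the cadherin CDH1 (log2 fold change -0.44, edgeR adjusted p = 0.0291) and the keratin KRT19 (log2 fold change -0.54). EPCAM (log2 fold change -0.31) was a further one, and its call was lost in 9 of 18 alternatives. That CDH1 call was lost in 3 of 18 alternatives, whereas at the initial harvest CDH1 was 2.01-fold lower (edgeR adjusted p = 4.77e-05), a call kept in all 18. The endothelial markers, which name cells rich in neuropilins, summed to 2.24 to 4.02 CPM, with CDH5 at 3 counts or fewer in every library. Fibroblast markers summed to 57.3 to 72.3 CPM in the wild type and 37.0 to 58.9 in the knock-out, with COL1A2, DCN and LUM at 3 counts or fewer in every library. Most of the sum was the collagen COL1A1, at 61.7 ± 6.29 CPM in initial wild-type and 40.6 ± 5.16 in initial knock-out libraries, and it was lower at both harvests. Another collagen, COL3A1, was lower in the initial knock-out (log2 fold change -2.63, edgeR adjusted p = 0.000149), from 33 to 74 counts in wild-type and 7 to 9 in knock-out libraries. At the final harvest COL3A1 did not pass (-0.71). Leukocyte markers summed to 1.18 to 2.14 CPM in the wild type and 2.50 to 3.33 CPM in the knock-out, with PTPRC and CD3E at 3 counts or fewer in every library. LYZ, which encodes lysozyme, was higher in the knock-out at the initial (log2 fold change 2.48, edgeR adjusted p = 1.15e-06) and the final harvest (1.48, edgeR adjusted p = 0.000189), from 9 to 23 counts in wild-type and 48 to 73 in knock-out libraries. Neuronal markers summed to 30.5 to 41.9 CPM in the wild type and 27.1 to 32.0 CPM in the knock-out, with ELAVL4 at 3 counts or fewer in every library. Of the 5 neuronal markers that passed the filter, 2 were lower and 1 higher in the final knock-out, beside 10.2% and 8.38% of all genes. SNAP25, a protein of synaptic vesicle fusion, was among the lower ones (log2 fold change -1.29, edgeR adjusted p = 0.00569), and the vesicle protein SYP was higher (1.02, edgeR adjusted p = 0.000727). The part of these marker shifts in the results below was not tested.

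The upstream sequence of 3 of the genes is shown before the values. SEMA3C, lower in the knock-out, has 2 RefSeq start sites with very different composition, NRP2 is the neuropilin that was higher in the knock-out, and PLXNA2 is the receptor whose genotype difference changed between harvests. RefSeq's table on GRCh38.p14 matched 8 of the 10 genes. It held no entry for SEMA3A or NRP1, so their upstream sequence is not shown. Each line gives the 250 bases before a start, 5′ to 3′ on the gene's strand, with CG dinucleotides, the sites of DNA methylation in human cells, in capitals.
SEMA3C first start, chr7:80922390-80922639, minus strand: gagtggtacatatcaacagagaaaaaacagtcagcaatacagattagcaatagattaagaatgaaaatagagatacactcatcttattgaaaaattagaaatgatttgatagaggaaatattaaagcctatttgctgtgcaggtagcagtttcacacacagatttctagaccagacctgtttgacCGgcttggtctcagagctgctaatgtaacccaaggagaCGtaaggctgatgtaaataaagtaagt
SEMA3C second start, chr7:80919052-80919301, minus strand: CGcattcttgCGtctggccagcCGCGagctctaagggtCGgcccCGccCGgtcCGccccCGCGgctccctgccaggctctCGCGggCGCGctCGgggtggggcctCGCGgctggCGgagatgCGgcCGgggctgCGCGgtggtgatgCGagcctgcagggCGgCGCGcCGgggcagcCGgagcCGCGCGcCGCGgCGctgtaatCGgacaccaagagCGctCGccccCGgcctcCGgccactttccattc
NRP2, chr2:205682251-205682500, plus strand: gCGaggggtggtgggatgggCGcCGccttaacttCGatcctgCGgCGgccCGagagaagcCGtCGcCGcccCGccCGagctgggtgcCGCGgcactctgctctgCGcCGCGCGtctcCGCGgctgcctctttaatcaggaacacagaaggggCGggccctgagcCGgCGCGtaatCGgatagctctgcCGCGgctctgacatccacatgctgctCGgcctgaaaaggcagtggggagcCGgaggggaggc
PLXNA2, chr1:208244385-208244634, minus strand: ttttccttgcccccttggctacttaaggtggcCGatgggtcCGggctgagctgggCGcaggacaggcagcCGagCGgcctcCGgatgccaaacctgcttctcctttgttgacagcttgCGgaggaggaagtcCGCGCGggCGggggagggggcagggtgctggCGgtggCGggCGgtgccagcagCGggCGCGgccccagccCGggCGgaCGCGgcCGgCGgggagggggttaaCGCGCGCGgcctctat

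The first SEMA3C window held 2 CG dinucleotides with a GC content of 36.4%, and 85.3% of all 35116 windows of the table held at least as many. The second SEMA3C window held 39, a number that 2.65% of windows reach, at a GC content of 77.6%. NRP2 held 29 and PLXNA2 held 27. The median over all windows was 11. The letters GGGCGG, read on both strands, occurred 3 times each in the second SEMA3C, the NRP2 and the PLXNA2 window and not in the first SEMA3C window, and 42.6% of all windows hold them at least once. CACGTG (6.35% of all windows) and TGANTCA (6.57%) were in none of these 4 windows. These matches describe letters in the sequence, and no binding or methylation was measured here.

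**Figure D1:**
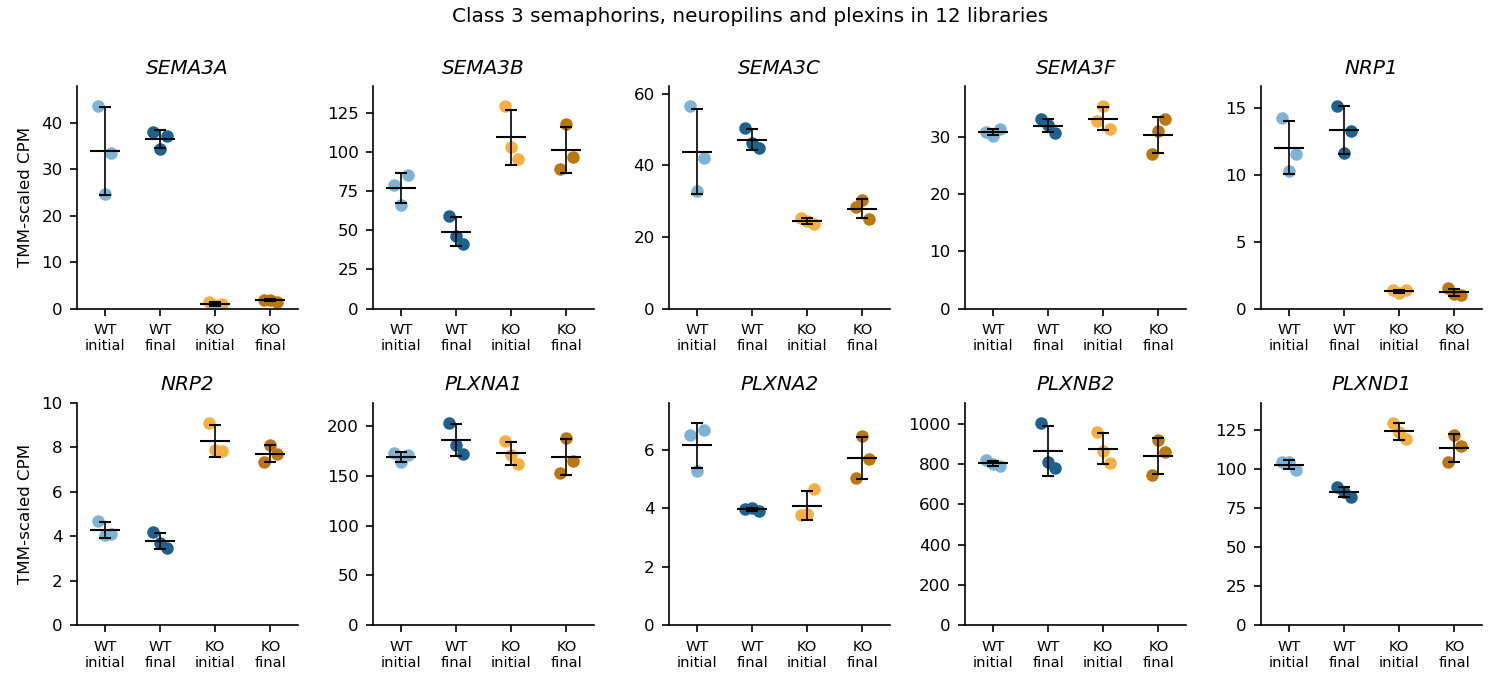
Each panel shows 1 gene, with TMM-scaled CPM on a linear vertical axis from 0 and the 4 groups on the horizontal axis. Points are libraries, the horizontal bar is the mean and the whiskers are ± 1 SD (n = 3). SEMA3A and NRP1 were near 1 CPM in the knock-out and above 10 CPM in every wild-type library, while NRP2 stood higher in all knock-out libraries.

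Among the ligands, SEMA3A was far lower in the knock-out, SEMA3C was lower, SEMA3B was higher and SEMA3F did not pass the test. SEMA3A (ENSG00000075213.11, GRCh38 chromosome 7, 83955777 to 84492724, minus strand), the semaphorin known for collapsing growth cones, gave 43.6, 24.7 and 33.5 CPM in the initial wild-type libraries and 38.0, 34.3 and 37.1 CPM in the final ones. The knock-out libraries gave 1.36, 0.702 and 0.893 CPM at the initial harvest and 1.91, 1.84 and 1.48 CPM at the final harvest. The lowest wild-type library was thus far above the highest knock-out library, and the knock-out values rested on 28 to 76 counts a library against 1000 to 1784 in the wild type. At the final harvest the means were 36.5 ± 1.92 and 1.74 ± 0.230 CPM, a 20.9-fold lower level in the knock-out (log2 fold change -4.38, SE 0.209, 95% interval -4.83 to -3.94, adjusted p = 2.82e-10 by edgeR's quasi-likelihood test). At the initial harvest, given without a test since it entered the choice of genes, the means were 33.9 ± 9.43 and 0.986 ± 0.340 CPM, a 34.3-fold lower level. In bulk RNA, fewer cells that express a gene and less RNA per cell cannot be told apart.

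SEMA3B (ENSG00000012171.20, chromosome 3, 50267558 to 50277546, plus strand), which is studied as a tumour suppressor of a commonly deleted region, gave 59.4, 46.3 and 41.4 CPM in the final wild-type and 89.1, 118 and 97.0 CPM in the final knock-out libraries. Every knock-out library lay above every wild-type library, and the difference was 2.07-fold (log2 fold change 1.05, SE 0.147, edgeR adjusted p = 8.30e-05). The initial libraries gave 79.2, 66.2 and 85.6 CPM in the wild type and 129, 103 and 95.4 CPM in the knock-out, again without overlap, at a described log2 difference of 0.51.

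SEMA3C (ENSG00000075223.14, chromosome 7, 80742538 to 80922359, minus strand), a ligand that can signal through either neuropilin and through PLXND1, gave 50.5, 46.1 and 44.8 CPM in the final wild-type and 28.4, 30.2 and 25.1 CPM in the final knock-out libraries. The knock-out level was 59.2% of the wild-type level (log2 fold change -0.76, SE 0.143, edgeR adjusted p = 0.00118), with ranges apart. At the initial harvest the wild type gave 56.5, 32.9 and 42.1 CPM and the knock-out 25.3, 24.4 and 23.5 CPM, a described log2 difference of -0.84. In the initial wild-type group, replicate 1 was the highest and replicate 2 the lowest library for SEMA3A, SEMA3C and NRP1 alike, with a ratio of 1.76 between them for SEMA3A, 1.72 for SEMA3C and 1.38 for NRP1. The same order held for NRP2 and PLXNA1, at ratios of 1.16 and 1.06, so it was not particular to the genes lower in the knock-out.

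SEMA3F (ENSG00000001617.12, chromosome 3, 50155045 to 50189075, plus strand), the NRP2 ligand, gave 33.2, 32.2 and 30.8 CPM in the final wild-type and 27.0, 31.1 and 33.1 CPM in the final knock-out libraries. These ranges overlapped, and the difference did not pass the threshold (log2 fold change -0.08, 95% interval -0.26 to 0.11, edgeR adjusted p = 0.614). The initial libraries gave 31.0, 30.3 and 31.4 CPM in the wild type and 32.9, 35.4 and 31.5 CPM in the knock-out. Those ranges were narrowly apart, at a described log2 difference of 0.11. The antisense gene SEMA3F-AS1 overlaps it, with 919 counts over the 12 libraries, and whether reads were assigned by strand is not given in the sources used here.

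The neuropilins moved in opposite directions, and NRP2 took the place of NRP1 as the more abundant of the pair. NRP1 (ENSG00000099250.18, chromosome 10, 33177492 to 33336262, minus strand), the SEMA3A co-receptor, gave 15.1, 11.6 and 13.3 CPM in the final wild-type and 1.51, 1.12 and 1.03 CPM in the final knock-out libraries. It was 10.9-fold lower in the knock-out (log2 fold change -3.45, SE 0.173, 95% interval -3.82 to -3.08, edgeR adjusted p = 5.88e-10). The initial harvest gave 14.3, 10.3 and 11.6 CPM in the wild type and 1.36, 1.13 and 1.35 CPM in the knock-out, a described 9.39-fold difference, so the wild-type and knock-out libraries did not overlap at either harvest.

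NRP2 (ENSG00000118257.17, chromosome 2, 205681990 to 205798133, plus strand), the SEMA3F co-receptor whose upstream sequence is shown above, gave 4.18, 3.70 and 3.47 CPM in the final wild-type and 7.32, 8.09 and 7.71 CPM in the final knock-out libraries. The difference was 2.04-fold (log2 fold change 1.03, SE 0.119, edgeR adjusted p = 9.67e-06). The initial libraries gave 4.69, 4.05 and 4.08 CPM in the wild type and 9.11, 7.87 and 7.83 CPM in the knock-out, and no wild-type library reached a knock-out library at either harvest.

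Shares among the listed neuropilins and ligands, a summary chosen after the values were seen, put these shifts on 1 scale. The 4 ligands are not the whole class 3 family. SEMA3G, left out of their sum, had a mean of 3.25 RPKM in initial wild-type and 4.49 RPKM in initial knock-out libraries. By RPKM, NRP1 made up 77.1 ± 1.60% of the 2 neuropilins in initial wild-type, 80.9 ± 1.62% in final wild-type, 15.8 ± 1.31% in initial knock-out and 16.0 ± 3.36% in final knock-out libraries. The lowest wild-type library had 75.4% and the highest knock-out library 19.9%. The RPKM of both neuropilins together was 1.35 ± 0.200, 1.43 ± 0.172, 0.706 ± 0.0588 and 0.660 ± 0.0177 in the same order. SEMA3A made up 11.8 ± 1.77% of the 4 ligands in initial wild-type and 14.8 ± 1.18% in final wild-type libraries, against 0.351 ± 0.0902% and 0.663 ± 0.118% in the knock-out. SEMA3B rose in share from 43.8 ± 3.23% and 31.5 ± 3.07% in the wild type to 63.0 ± 3.30% and 61.2 ± 2.30% in the knock-out. The summed RPKM of the 4 ligands was 30.6 ± 4.30, 26.8 ± 2.44, 30.0 ± 3.30 and 28.6 ± 3.13 in initial wild-type, final wild-type, initial knock-out and final knock-out libraries.

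**Figure D2:**
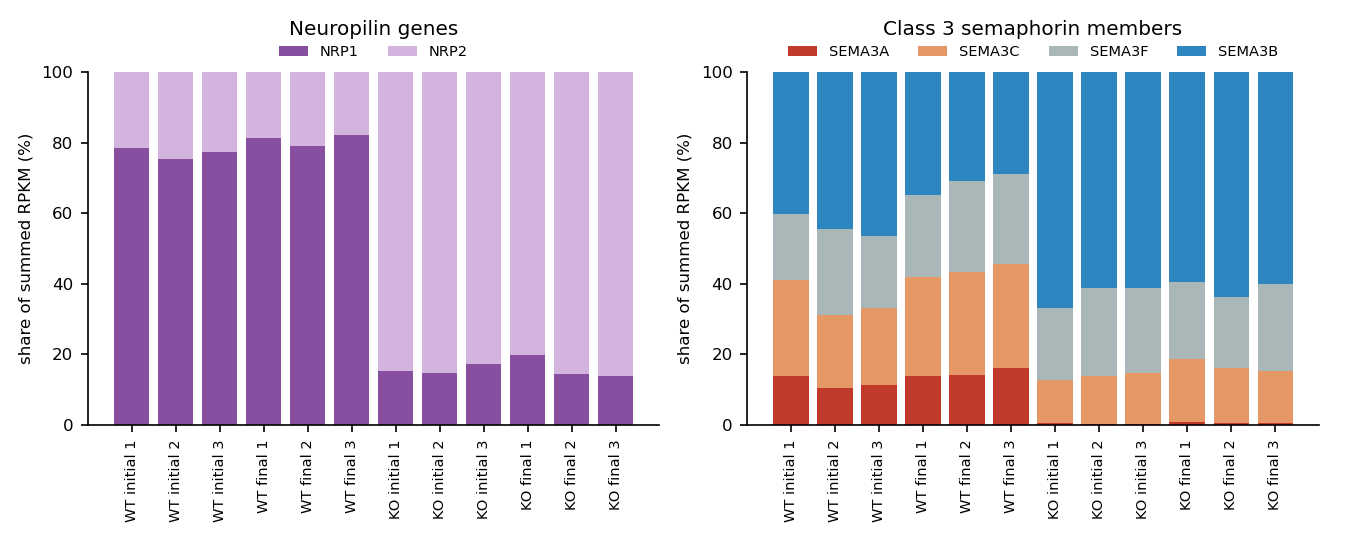
Stacked bars show, for each of the 12 libraries on the horizontal axis, the share in percent of summed RPKM taken by each neuropilin (left) and by each of the 4 listed class 3 semaphorins (right). NRP1 held 75.4% or more of the neuropilin RPKM in each wild-type library and 19.9% or less in each knock-out library.

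Among the plexins, which carry the signal across the membrane, PLXND1 and PLXNA2 were higher in the final knock-out, and PLXNA1 and PLXNB2 did not pass the threshold. PLXND1 (ENSG00000004399.13, chromosome 3, 129555214 to 129606676, minus strand), the SEMA3E receptor of blood vessels, gave 88.4, 85.6 and 82.4 CPM in the final wild-type and 104, 122 and 115 CPM in the final knock-out libraries. All knock-out libraries stood above the wild type, at 1.33-fold (log2 fold change 0.41, SE 0.0764, edgeR adjusted p = 0.000991). The initial libraries gave 104, 105 and 99.5 CPM in the wild type and 130, 124 and 119 CPM in the knock-out, a described log2 difference of 0.27.

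PLXNA2 (ENSG00000076356.7, chromosome 1, 208022242 to 208244384, minus strand), a neuropilin-dependent plexin, was the only gene of the 10 with ranges apart in opposite directions at the 2 harvests. The initial libraries gave 6.52, 5.26 and 6.68 CPM in the wild type and 3.78, 3.81 and 4.67 CPM in the knock-out. The final libraries gave 3.99, 4.01 and 3.91 CPM in the wild type and 5.03, 6.48 and 5.68 CPM in the knock-out. The knock-out was thus below the wild type first (described log2 difference -0.59) and above it later (log2 fold change 0.53, SE 0.137, edgeR adjusted p = 0.0119). Without the final knock-out replicate 2, the highest of its group, the final difference was 0.43 with an edgeR adjusted p of 0.0610, which is past the threshold no longer.

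PLXNB2 (ENSG00000196576.16, chromosome 22, 50274979 to 50307646, minus strand), best known as a receptor of class 4 semaphorins, was the most abundant of the 10 genes, with 1006, 812 and 779 CPM in the final wild-type and 744, 920 and 863 CPM in the final knock-out libraries. The log2 fold change was -0.04 (95% interval -0.28 to 0.20, edgeR adjusted p = 0.856). PLXNA1 (ENSG00000114554.12, chromosome 3, 126982693 to 127037389, plus strand), a partner of NRP1 in SEMA3A signalling, gave 204, 182 and 172 CPM against 153, 188 and 165 CPM, a log2 fold change of -0.14 (95% interval -0.33 to 0.06, edgeR adjusted p = 0.343). The groups overlapped for both genes, and no difference was shown for them at this precision. PLXNB2 took 80.8%, 82.1%, 80.7% and 80.9% of the RPKM of the 4 plexins in initial wild-type, final wild-type, initial knock-out and final knock-out libraries. Other plexins are not in that sum, among them PLXNB1 and PLXNA3 at 15.8 and 13.3 RPKM in initial wild-type libraries.

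In all, 7 of the 10 genes passed the threshold at the final harvest, 3 lower and 4 higher, where 18.5% of the 18289 genes tested passed (10.2% lower and 8.38% higher). The final knock-out libraries come from the same clone as the initial ones, whose genotype difference was in view when the genes were chosen. This final count and its p-values are therefore not independent of that choice. The same 7 genes were those whose wild-type and knock-out libraries did not overlap at the final harvest. How many of all genes were without such overlap was not counted, so nothing is read from it. The median log2 fold change of the 10 was -0.06 and the median of its size 0.64, beside -0.0008 and 0.19 over all genes tested. At the initial harvest 7 of the 10 were past the same threshold, 3 higher and 4 lower, beside 19.9% of all genes (8.55% higher and 11.3% lower). That count describes the comparison the genes were chosen with, and nothing is read from it.

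**Figure D3:**
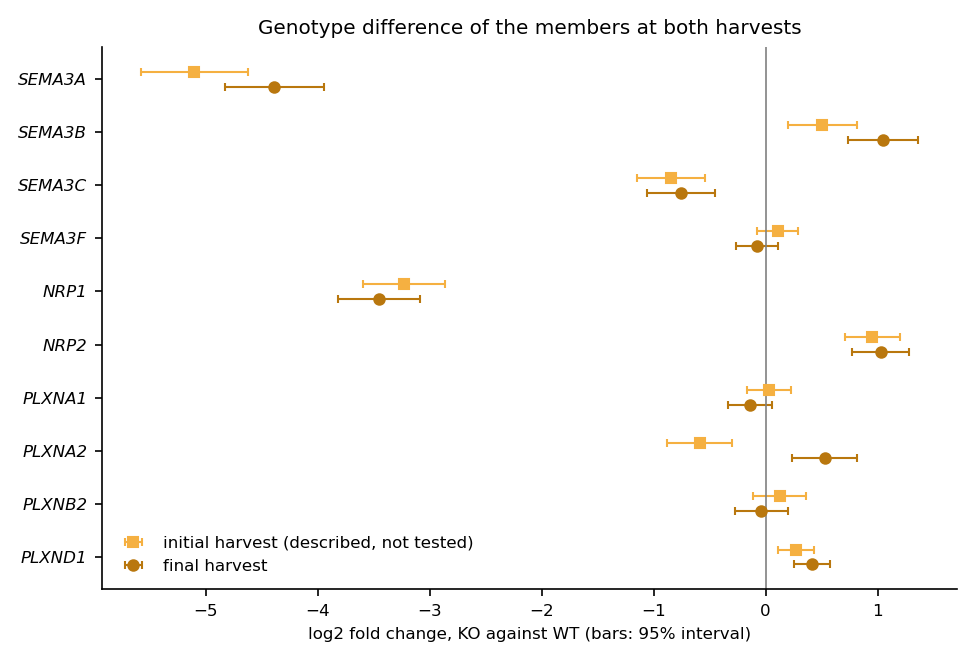
The fitted log2 fold change of the knock-out against the wild type is on the horizontal axis, with 95% intervals as bars, for each of the 10 genes at the initial (squares, described without a test) and the final harvest (circles). SEMA3A (-5.10 and -4.38) and NRP1 (-3.23 and -3.45) stand far to the left at both harvests, and PLXNA2 (-0.59 and 0.53) lies on opposite sides of 0.

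By level per length, the order of the genes in initial wild-type cells was PLXNB2 (110 ± 1.96 RPKM), PLXNA1 (15.1), SEMA3B (13.3), PLXND1 (10.8), SEMA3C (7.19), SEMA3F (6.40), SEMA3A (3.66 ± 1.02), NRP1 (1.05), PLXNA2 (0.445) and NRP2 (0.307). The libraries of PLXNA1 and SEMA3B overlapped, as did those of SEMA3C and SEMA3F, and the other neighbours were apart. In final wild-type cells SEMA3A was again in place 7, at 3.94 ± 0.207 RPKM, and the overlapping neighbours were PLXND1 with SEMA3B, SEMA3B with SEMA3C and PLXNA2 with NRP2. In initial knock-out cells SEMA3A was last at 0.106 ± 0.0367 RPKM, level with NRP1 at 0.111, and NRP2 (0.595) and PLXNA2 (0.295) stood above both. In final knock-out cells SEMA3A had 0.188 ± 0.0248 RPKM and place 9, above NRP1 at 0.106. Among the ligands SEMA3B had the highest mean in all 4 groups, with 18.96 ± 3.08 RPKM in initial and 17.6 ± 2.59 in final knock-out cells.

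Over 2 months of culture, SEMA3B, PLXNA2 and PLXND1 fell in the wild type, 3 of the 9 genes tested, where 6.47% of all genes passed (3.05% higher and 3.42% lower). SEMA3B fell by 0.65 on the log2 scale (SE 0.147, edgeR adjusted p = 0.0131), PLXNA2 by 0.63 (SE 0.136, edgeR adjusted p = 0.00969) and PLXND1 by 0.27 (SE 0.0764, edgeR adjusted p = 0.0473). For each of the 3, every final wild-type library lay below every initial one. The share of all genes separated in this way was not counted, so nothing is read from it. The time and interaction tests use the initial libraries, whose genotype difference was in view when the genes were chosen, so their p-values are not independent of that choice. The count was 0 without initial wild-type replicate 3 and 1 without final wild-type replicate 2 or replicate 3, and PLXND1 kept its direction but lost its call in 12 of 18 alternatives. The other 6 did not pass, with intervals of -0.19 to 0.40 for SEMA3C, -0.15 to 0.44 for NRP1 and -0.44 to 0.08 for NRP2 on the log2 scale. SEMA3A, described without a test because the initial libraries entered its choice, differed by 0.10 between wild-type harvests, with overlapping ranges.

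In the knock-out, 0 of the 9 genes passed by edgeR's quasi-likelihood test, where 1.48% of all genes did (0.837% higher and 0.64% lower). At an unadjusted p under 0.05 there was 1, and DESeq2 called 1, PLXNA2 (log2 fold change 0.49 in edgeR with an adjusted p of 0.0972, DESeq2 adjusted p = 0.0330), whose final knock-out libraries were all above the initial ones. SEMA3A, again described only, was 1.77-fold higher at the final than at the initial knock-out harvest, with 59 to 76 counts a library against 28 to 54, and stayed below 2 CPM.

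The test of whether the genotype difference changed between harvests, the interaction of genotype and time, called PLXNA2 alone among 9 genes, where 1.28% of all genes passed (0.809% higher and 0.476% lower). The final genotype difference minus the initial one, the latter among the values the genes were chosen with, was 1.12 on the log2 scale (SE 0.193, 95% interval 0.71 to 1.53, edgeR adjusted p = 0.00619). At an unadjusted p under 0.05 there were 2 genes, and DESeq2 called 1. For SEMA3B the interaction was 0.54 (edgeR adjusted p = 0.276), so that its larger final genotype difference was not shown to differ from the initial one. For NRP1 the interaction was -0.22 (95% interval -0.75 to 0.32) and for NRP2 it was 0.08 (95% interval -0.28 to 0.43), and neither passed. The interaction uses the same 12 libraries as the other comparisons.

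SEMA3A lies in a stretch of chromosome 7 that holds other class 3 semaphorins, and SEMA3E, its neighbour, was lower with it. Of 23 other genes with a start within 2 Mb of SEMA3A, 3 passed the filter on low counts: PCLO, which encodes a presynaptic scaffold protein, SEMA3E, the PLXND1 ligand, and SEMA3D, a further class 3 ligand. SEMA3E (chromosome 7, 83363238 to 83649139) gave 6.27 ± 0.173 CPM in final wild-type and 0.168 ± 0.0518 CPM in final knock-out libraries, from 229 to 248 and 5 to 9 counts. That is a 36.6-fold lower level (log2 fold change -5.19, SE 0.225, edgeR adjusted p = 8.14e-11), beside 25.7-fold at the initial harvest (edgeR adjusted p = 2.98e-09). SEMA3D (chromosome 7, 84995553 to 85187056) on the other side of SEMA3A was higher in the final knock-out, at 8.77 ± 0.931 against 4.55 ± 0.298 CPM (log2 fold change 0.95, edgeR adjusted p = 0.00219). PCLO lay at 10.2 ± 0.480 against 8.45 ± 0.623 CPM and did not pass (log2 fold change 0.27, edgeR adjusted p = 0.124).

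A wider stretch, from 2 Mb before SEMA3C to 2 Mb past SEMA3D and chosen after the values were seen, held 12 genes that passed the filter. At the final harvest 5 of them were lower past the threshold, 1 was higher and 6 did not pass. Of all genes tested, 10.2% were lower and 8.38% higher. The stretch was laid around SEMA3A, SEMA3C and SEMA3D with their values known, so nothing is read from this count. The lower ones were SEMA3C, CACNA2D1, a calcium channel subunit, at log2 fold change -2.83 (edgeR adjusted p = 0.00136), SEMA3E, SEMA3A and ELAPOR2 at -0.26 (edgeR adjusted p = 0.0244), which lost its call in 5 of 18 alternatives. CACNA2D1 was low throughout, at 0.437 ± 0.166 CPM in final wild-type and 0.0589 ± 0.0384 CPM in final knock-out libraries. PCLO, between CACNA2D1 and SEMA3E, did not pass (log2 fold change 0.27, 95% interval 0.02 to 0.51). GNAI1, a G protein subunit gene 4.72 Mb from SEMA3A, did not pass either. The cause of the differences in this stretch was not tested.

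**Figure D4:**
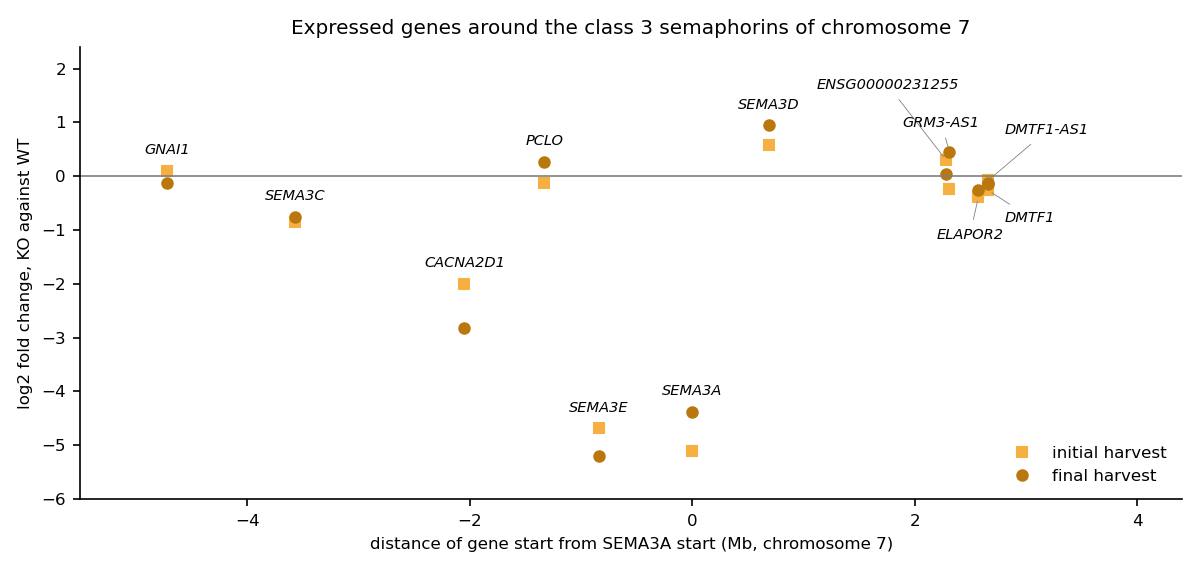
Each of the 12 genes that passed the filter in the wider stretch is placed by the distance of its start from that of SEMA3A, in Mb, with the log2 fold change of the knock-out against the wild type on the vertical axis for the initial (squares) and final harvest (circles). SEMA3E and SEMA3A lie at or below -4.38 at both harvests, CACNA2D1 at -1.99 and -2.83, and SEMA3D above 0.

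Genes outside the semaphorin family followed SEMA3A most closely across the 12 libraries. By Pearson's r of log2 CPM over 12536 genes, CDKAL1 (0.992), BPHL (0.991), ATXN1 (0.991) and PXDN (0.991) were among the 5 closest. CDKAL1, BPHL and ATXN1 lie on chromosome 6 and PXDN on chromosome 2. NRP1 followed at place 15 (0.987) and SEMA3C at place 233 (0.938), while NRP2 stood at -0.957. The libraries fall into 2 clusters by genotype and share their scaling, so r is a description of these libraries and carries no test. PXDN, a peroxidase of the extracellular matrix, had 103, 98.3, 1.27 and 1.60 CPM on average in initial wild-type, final wild-type, initial knock-out and final knock-out libraries.

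The rest of the pathway was counted in 6 lists of 66 further genes, of which 59 passed the filter. At the final harvest 17 passed the threshold, 9 higher and 8 lower, which is 28.8% beside 18.5% of all genes, and at the initial harvest also 17, 11 higher and 6 lower, beside 19.9%. Of those called at the final harvest, SEMA3E, PLXNA4, FLT4 and ADAMTS1 could pass the filter only through groups where they were higher. The lists were also chosen with earlier results known, so nothing is read from these shares. The median log2 fold change of the 59 was -0.01 at the final and -0.003 at the initial harvest. Of the other class 3 semaphorins, SEMA3E was lower and SEMA3D higher at the final harvest, and SEMA3G did not pass (log2 fold change 0.25), although it was higher at the initial harvest (0.46, edgeR adjusted p = 0.00754). Of 5 other plexins, 2 were higher and 0 lower at the final harvest, beside 8.38% of all genes higher and 10.2% lower. The 2 were PLXNA4, an A-type plexin of SEMA3A signalling in neurons, and PLXNC1, the SEMA7A receptor. PLXNA4 was scarce, with 2 to 7 counts in final wild-type and 11 to 23 in final knock-out libraries (log2 fold change 1.79, SE 0.424, edgeR adjusted p = 0.00647). PLXNC1 had a log2 fold change of 0.63 (edgeR adjusted p = 0.0455), and lost its call in 9 of 18 alternatives. At the initial harvest PLXNA4 was the 1 higher and PLXNA3, an A-type plexin, the 1 lower of these plexins (log2 fold changes 2.18 and -0.42, edgeR adjusted p = 0.000208 and 0.0196), and PLXNA3 did not pass at the final harvest (-0.33, edgeR adjusted p = 0.0661).

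Of 13 transmembrane and anchored semaphorins 11 passed the filter, with SEMA7A higher (log2 fold change 0.48, edgeR adjusted p = 0.0296) and SEMA4B lower (-0.42, edgeR adjusted p = 0.00430) at the final harvest. SEMA7A lost its call in 5 of 18 alternatives. The one with the highest level per length was SEMA6B, a transmembrane semaphorin, at 29.3, 28.1, 33.5 and 31.5 RPKM in initial wild-type, final wild-type, initial knock-out and final knock-out libraries, above all members of the class 3 family listed here. Of 28 plexin signalling genes 27 passed the filter, and 1 was higher and 4 lower at the final harvest, about the share over all genes tested (18.5%). The higher one was DPYSL2, the collapsin response mediator through which SEMA3A acts on microtubules (log2 fold change 0.82, SE 0.0776, edgeR adjusted p = 9.08e-07). FYN, a kinase that binds A-type plexins, was lower at both harvests (log2 fold change -1.06, edgeR adjusted p = 2.80e-06, and -0.54, edgeR adjusted p = 0.00174), and RRAS, a small GTPase that plexins switch off, was lower at the final harvest (-0.63, edgeR adjusted p = 0.00517). RND1 and LIMK1 were the others that were lower, with log2 fold changes of -0.42 and -0.34, and RND1 lost its call in 16 of 18 alternatives.

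Of 12 neuropilin partners and other ligands 8 passed the filter, with the growth factor receptor KDR higher (log2 fold change 0.67, edgeR adjusted p = 0.0298) and MET (-0.38, edgeR adjusted p = 0.0125) and FLT4 (-1.41, SE 0.340, edgeR adjusted p = 0.00727) lower at the final harvest. KDR lost its call in 6 of 18 alternatives, and FLT4 rested on 12 to 17 counts in final wild-type and 4 to 7 in final knock-out libraries. VEGFA, a growth factor that also binds NRP1, was lower at the initial harvest (-0.46, edgeR adjusted p = 0.000355) and did not pass at the final one (-0.09, edgeR adjusted p = 0.455). PGF, a related growth factor, was higher at the initial harvest (0.77, edgeR adjusted p = 0.00282) and did not pass at the final one (0.10). Of 5 proteases that cut semaphorins, 3 were higher and 0 lower at both harvests. Of all genes, 8.55% were higher at the initial harvest, and 8.38% were higher and 10.2% lower at the final harvest. The 3 proteases were PCSK5, PCSK7 and ADAMTS1. The proprotein convertases PCSK5 and PCSK7 had log2 fold changes of 0.50 and 0.34 at the final harvest (edgeR adjusted p = 0.00353 and 0.0353). PCSK7 lost its call in 7 of 18 alternatives at that harvest. ADAMTS1 had 1 count or none in each wild-type library, and 12 to 15 and 18 to 23 counts in initial and final knock-out libraries. It could pass the filter only through the knock-out libraries, so nothing is read from its call or from the count of 3.

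**Figure D5:**
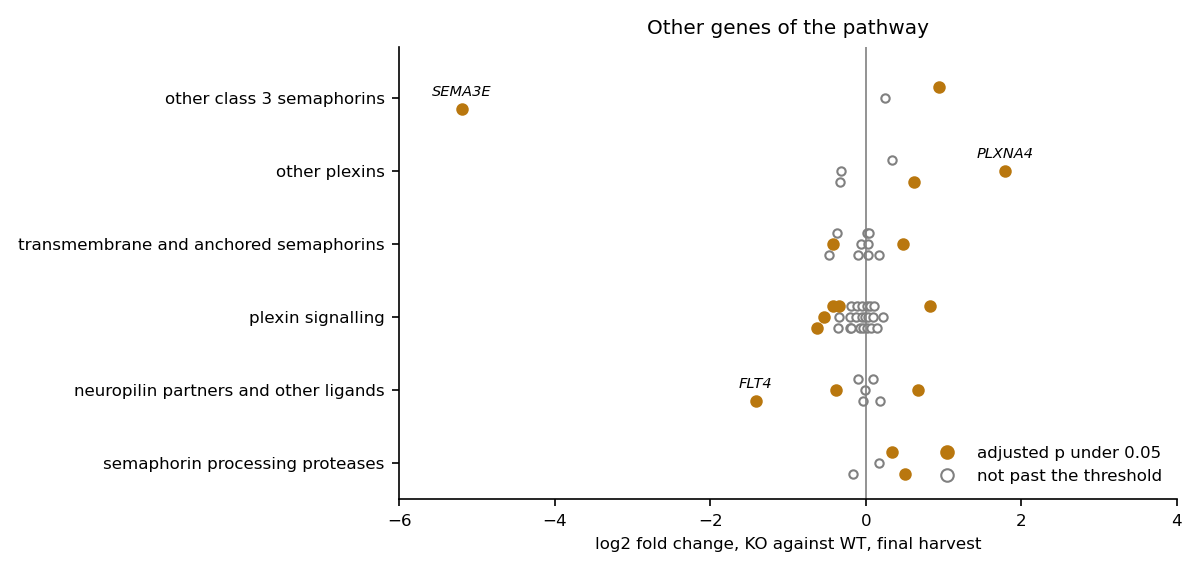
Each point is a gene of the other pathway lists on the vertical axis, placed by its log2 fold change in the final knock-out against the final wild type, and filled where the edgeR adjusted p was under 0.05. SEMA3E (-5.19), PLXNA4 (1.79) and FLT4 (-1.41) are named, and ADAMTS1 is left out since its wild-type libraries had 1 count or none.

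Over time in the wild type, 2 of the 59 pathway genes passed, or 3.39% beside 6.47% of all genes: SEMA3E higher (log2 fold change 1.12, edgeR adjusted p = 0.000223) and VEGFA lower (-0.43, edgeR adjusted p = 0.00215). In the knock-out 0 passed by edgeR's quasi-likelihood test, 12 had an unadjusted p under 0.05 and DESeq2 called 0. In the interaction 0 passed by edgeR, 10 had an unadjusted p under 0.05 and DESeq2 called 2, FYN and VEGFA. SEMA3E stayed scarce in the knock-out at both harvests, with 2 to 6 counts at the initial and 5 to 9 at the final one.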

How the data were processed

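Poly-A RNA-seq of 12 HCT116 libraries was available as 1 deposited table of raw counts per gene, which the authors made with STAR, Subread and featureCounts on hg38, per the submitters' processing notes. Tool versions, annotation release, strand setting and the handling of multi-mapping reads are not given in the sources used here. Of the table's gene IDs, 37318 matched GENCODE 29 by version, all with identical GRCh38 coordinates. Symbols were found for 60506 of 60648 genes, and 1 gene broken over 5 lines was left out.

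Counts were filtered with filterByExpr by group (18289 genes left), scaled with TMM and fitted in 1 edgeR 4.0.16 quasi-likelihood model (limma 3.58.1, R 4.3.3) of all 12 libraries with 4 group means and robust dispersions. Adjusted p-values are Benjamini-Hochberg over all 18289 genes, with a threshold of 0.05. SE was taken as the size of the log2 fold change over the square root of F. RPKM used the table's length column. The model was tested on simulated data.

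The genes, lists and tests were chosen with earlier results of these data known. The initial genotype comparison helped to choose the genes, so for the 10 it is given as fold changes and a count past the threshold, from which nothing is read, without p-values. SEMA3A is tested only at the final harvest, in later libraries of the same knock-out clone, so that p-value is not independent of the choice. Genes were named by rule: the 10 genes, MTHFD2, list genes past the threshold with a log2 fold change of at least 1 in size, the highest-level gene of a list with none, the filtered neighbours of SEMA3A within 2 Mb, and the 5 genes most like it, of which 1 is not reported here. Other list genes past the threshold, CACNA2D1, ELAPOR2 and GNAI1, and SEMA3G, KRT19 and PLXNB1 were named after their values were seen.

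Alternatives were relative log expression scaling, DESeq2 1.42.0, no filter, a filter of 10 counts in 3 libraries, a replicate block, only the compared groups, and leaving out each library.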

Additional observations from a re-analysis of the deposited data

Results flagged for a closer look

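The change of PLXNA2 over time differed between the 2 genotypes, by a test of the difference itself. In the wild type it went from 6.16 ± 0.777 to 3.97 ± 0.0562 CPM and in the knock-out from 4.09 ± 0.505 to 5.73 ± 0.725 CPM (n = 3 each). The interaction was 1.12 on the log2 scale (SE 0.193, edgeR adjusted p = 0.00619), and over all alternatives it ran from 1.01 to 1.23 with adjusted p-values of 1.99e-05 to 0.0304. Within a genotype, edgeR called the fall in the wild type (adjusted p = 0.00969) but not the change in the knock-out (log2 fold change 0.49, adjusted p = 0.0972), which DESeq2 called (adjusted p = 0.0330). The initial libraries in this test were in view when the genes were chosen. All 3 final wild-type libraries lay below all 3 initial ones, and all 3 final knock-out libraries above all 3 initial ones. How many of all genes were separated in this way was not counted, so nothing is read from it.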

How the results depend on the processing

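Over 115 results and 2041 alternative values, 1896 kept their sign and their side of the threshold (or, with no test, stayed within 1 SD), 108 lost a call, 14 gained one, 6 moved and 17 changed sign. The alternatives for genes other than the 10 were chosen after seeing the data. SEMA3A at the final harvest ran from -4.46 to -4.29 and NRP1 from -3.64 to -3.35 on the log2 scale. The final count of genes past the threshold was 6 to 7, and 6 only without final knock-out replicate 2 (PLXNA2). The wild-type time count was 0 to 3 with 1 library left out, the knock-out time count was 1 with DESeq2, and the interaction count was 2 with no filter (SEMA3B, adjusted p = 0.0188); the cause was not tested. Ordering the 10 genes by CPM in place of RPKM, which ignores length, moved 12 places over the 4 groups. Sign changes were seen with 1 library left out, in values not past the threshold: PLXNB2 at the final harvest (-0.12 to 0.083), SEMA3C (-0.071 to 0.33) and PLXNB2 (-0.022 to 0.18) over wild-type time, SEMA3B (-0.24 to 0.021), NRP1 (-0.26 to 0.029), PLXNA1 (-0.12 to 0.025) and PLXNB2 (-0.13 to 0.015) over knock-out time, SEMA3C (-0.14 to 0.26) and NRP2 (-0.001 to 0.16) in the interaction, and PLXNC1 (-0.22 to 0.28) and RND1 (-0.011 to 0.10) at the initial harvest. Of the values given without a test, SEMA3A over wild-type time (-0.085 to 0.33) and PLXNA1 at the initial harvest (-0.021 to 0.071) also changed sign.

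Replicate numbers did not pair the libraries: deviations of same-numbered libraries correlated from -0.59 to 0.53 over 18 pairs, and 5 of 12 libraries correlated best with their own number. With the replicate block the counts were 7 at the final harvest, 2 over wild-type time, 0 over knock-out time and 1 in the interaction; PLXND1 over wild-type time had -0.27 (adjusted p = 0.0682). Depth limits SEMA3E, PLXNA4, FLT4, CACNA2D1 and ADAMTS1 most, and intervals cover the spread of these libraries only.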
